A study of Mus musculus with 12 samples.

Results

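The elastic fibre and microfibril genes described here are 10 mouse genes for the structural proteins of elastic fibres, picked by symbol (Eln, Fbn1, Fbn2, Mfap2, Mfap4, Mfap5, Fbln1, Fbln2, Fbln5 and Emilin1) from a table of 36186 genes. All 10 were found. An elastic fibre has a core of crosslinked elastin laid down on a scaffold of fibrillin microfibrils, and fibulins, microfibril-associated proteins and EMILINs join the core, the scaffold and the cell surface. Tropoelastin, the soluble elastin monomer, is fixed into the core by lysyl oxidases. In the kidney, elastic fibres lie in the walls of arteries, while microfibrils without elastin are found in the interstitium, the glomerular mesangium and along basement membranes.

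The study asks what Hox genes of the Abdominal-B class do in kidney development, using mice with frameshift mutations in the first exons of neighbouring Hoxa and Hoxc genes. RNA of whole kidneys at embryonic stage E18.5 was sequenced in 12 libraries, 3 for each of 4 genotypes, and all the mice were of a mixed 129/CD1 background. Wild type kidneys are the libraries Wt_30, Wt_37 and Wt_55. AkCh kidneys (AkCh_20, AkCh_31 and AkCh_33) are homozygous mutant for Hoxa9, Hoxa10 and Hoxa11 and heterozygous for Hoxc9, Hoxc10 and Hoxc11. AhCk kidneys (AhCk_38, AhCk_110 and AhCk_115) are heterozygous for the mutant Hoxa genes and homozygous for the mutant Hoxc genes, and AkCk kidneys (AkCk_24, AkCk_27 and AkCk_29) are homozygous for both. By the text of the paper, embryos that lack both sets in full form no kidney. The sequenced mutants it describes are homozygous for mutant Hoxa9, Hoxa10 and Hoxc genes, as in AkCk, and kept 1 or 2 working alleles of Hoxa11. The sample labels do not show this. The AhCk libraries come from sequencing run1646 and the other 9 from run1008, so run and genotype cannot be told apart for AhCk.

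Counts on genes per library came to 37190035, 42353502 and 39304120 in Wt, 28616877, 41184985 and 38337107 in AkCh, 33106649, 47067903 and 46399578 in AhCk, and 39352856, 40151311 and 36951243 in AkCk. Levels are given as CPM, a gene's counts relative to its library's total after edgeR's TMM scaling, on 1 scale for all 12 libraries. A level of 3 counts, the floor used here, corresponds to 0.0614 to 0.116 CPM, and the 10 members had between 375 and 22879 counts in a library. Such a floor covers counting error only, since reads are not independent molecules. None of the members comes near it, so depth does not limit whether they were detected.

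The mutated genes kept transcripts. Hoxa10 had 125, 152 and 164 CPM in Wt, 153, 103 and 107 CPM in AkCh, 113, 104 and 114 CPM in AhCk and 100.3, 104 and 112 CPM in AkCk. Hoxc10 had 50.2, 58.8 and 66.9 CPM in Wt, 121, 45.3 and 41.6 in AkCh, 32.1, 36.6 and 51.6 in AhCk and 37.8, 29.1 and 35.8 in AkCk. The 3 AkCk libraries lay below the 3 Wt libraries for both genes. This was also so for Hoxc9, with 11.05, 10.55 and 10.39 CPM in AkCk and 11.35, 11.72 and 15.59 CPM in Wt. It was so too for Hoxc11, with 1.045, 0.8918 and 1.237 CPM in AkCk, while the groups overlapped for Hoxa9. Hoxa11 had 44.2, 52.7 and 59.7 CPM in Wt, 43.2, 51.8 and 52.2 in AkCh, 53.9, 61.5 and 52.9 in AhCk and 37.1, 38.2 and 52.9 in AkCk, and its groups overlapped. Mean levels in Wt, AkCh, AhCk and AkCk were 25.0, 31.5, 30.9 and 25.4 CPM for Hoxa9, 12.9, 19.0, 11.4 and 10.7 CPM for Hoxc9 and 1.66, 1.94, 1.54 and 1.06 CPM for Hoxc11. AkCh_20 had the highest level of its group for these 3 genes. In AkCh_20, AkCh_31 and AkCh_33, Hoxa9 had 40.8, 26.7 and 27.1 CPM, Hoxc9 32.7, 11.7 and 12.6 CPM and Hoxc11 2.94, 1.57 and 1.32 CPM, while Hoxc11 had 1.56, 1.59 and 1.83 CPM in Wt. A first-exon frameshift can leave the transcript in place, so these levels do not check the genotypes.

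The sexes are not spread evenly over the groups. Xist, made by females from the inactive X chromosome, had 72.6 and 60.1 CPM in AkCk_27 and AkCk_29, 189.6 and 253 CPM in AkCh_31 and AkCh_33, and 336 CPM in AhCk_110, and at most 0.138 CPM in the other 7 libraries. The Y-linked genes Ddx3y, Kdm5d, Uty and Eif2s3y were expressed in those other 7, which include the 3 Wt libraries. AkCh_20 stands apart from the rest in several ways. Its depth was the lowest, its TMM factor was 0.905 against 0.973 to 1.04 in the other 11 libraries, and its 50 most abundant genes took 12.9% of its counts against 9.38% to 11.0%. The proximal tubule transporter gene Slc34a1 had 83.0 CPM in AkCh_20 against 580.1 and 1068 CPM in AkCh_31 and AkCh_33, while the nephron progenitor gene Six2 had 164 CPM against 76.7 and 69.7 CPM. Counts of genes past the threshold in comparisons that use AkCh are therefore given with and without AkCh_20, for the members and for the lists of genes, with the marker lists pooled. Malat1, a long noncoding RNA kept in the nucleus, had 3996, 4306 and 4805 counts in Wt, 2501, 1976 and 3175 in AkCh, 3365, 3788 and 6948 in AhCk and 1374, 1735 and 1040 in AkCk, where each library was below the other 9. A difference between groups in RNA quality or in the share of nuclear RNA was not tested.

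In AkCk against Wt, 8 of the 10 members were past the threshold, an adjusted p below 0.05. The test was edgeR's quasi-likelihood test, and p-values were adjusted by the method of Benjamini and Hochberg for the number of genes in the fit. Of all genes tested, 13.7% were past the threshold (2171 of 15839), 6.31% with a rise and 7.4% with a fall, and each of the 8 members rose. Malat1 was lower in each AkCk library than in each Wt library, and its bearing on this count was not tested. The same 8 had an unadjusted p below 0.05, as did 32.4% of all genes, and DESeq2 also passed 8, beside 21.3% of all genes (3380 of 15839). The median log2 fold change of the 10 members was 0.74, beside -0.01 over all genes. In 9 of the 10 the 3 AkCk libraries lay above the 3 Wt libraries, as did 17.3% of all genes tested, while 20.8% lay below. The 10 levels added up to 1423, 1516 and 1564 CPM in Wt, 1914, 1553 and 1361 CPM in AkCh, 1471, 1836 and 2149 CPM in AhCk and 2323, 2530.0 and 2316 CPM in AkCk. Each AkCk sum was above each of the other 9, with AhCk_115 the nearest. Whether a member's RNA came from more cells of a type or from more RNA per cell cannot be told apart in whole kidneys. The study's own list of changed genes, drawn from these libraries, holds Eln, Mfap5 and Fbln2, so their rise here is no independent evidence. The count of 8 depends on single libraries. It was 4 without Wt_37 or Wt_55, 5 without AkCk_24 or AkCk_27, 6 without AkCk_29 and 7 without Wt_30, and the count over all genes was 535, 633, 793, 1101, 1644 and 3386 in that order.

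**Figure D1:**
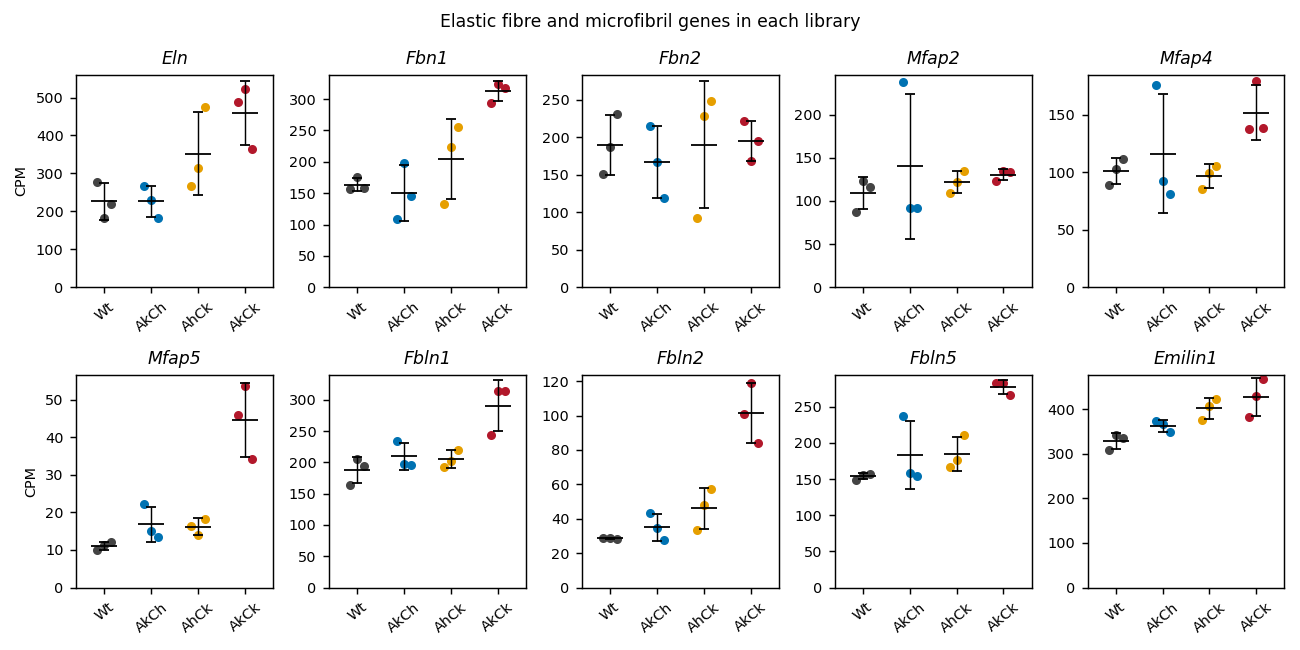
Level of each member in CPM (vertical axes, each starting at 0) in the 12 libraries, 1 point per library, grouped by genotype, with the mean and SD of 3 libraries as lines. For Mfap5, Fbln2, Fbln5 and Fbn1 the 3 AkCk points lie above the other 9, while for Fbn2 the 4 genotypes overlap.

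Levels of different members are set side by side per kilobase of merged exons. The most abundant gene of each list, named further below, is by CPM without this division. In Wt the order was Mfap2 with 90.0 ± 15.6, Emilin1 with 66.7 ± 3.65, Mfap4 with 52.7 ± 6.02, Fbln1 with 43.0 ± 4.89, Eln with 28.0 ± 6.0, Fbln5 with 22.3 ± 0.657, Fbn2 with 14.4 ± 3.02, Fbn1 with 13.5 ± 0.871, Fbln2 with 4.51 ± 0.0562 and Mfap5 with 3.09 ± 0.294 CPM per kilobase (SD, n = 3). Eln and Fbln5, and Fbn2 and Fbn1, are neighbours in this order whose gap is smaller than the SD of Eln or Fbn2. Wild type kidneys thus carried more transcript per kilobase of Mfap2 and Mfap4 than of either fibrillin. Mfap5, which like Mfap2 codes for a small protein of the microfibril, had less than either fibrillin. The members with the lowest Wt levels, Mfap5 and Fbln2, were those with the highest fold changes in AkCk. They were still low there, with a mean of 12.4 CPM per kilobase for Mfap5 and 15.9 for Fbln2, beside 14.8 for Fbn2 and 25.7 for Fbn1.

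Eln (gene ID 13717) codes for tropoelastin, the monomer of the elastic core, and lies on the minus strand of chromosome 5 from 134702595 to 134747368 in build GRCm38.p6. It had 489, 523 and 364 CPM in AkCk_24, AkCk_27 and AkCk_29, against 278, 182 and 219.7 CPM in Wt_30, Wt_37 and Wt_55. The lowest AkCk library was AkCk_29, still above Wt_30, the highest Wt library. The difference was a log2 fold change of 1.02 (SE 0.18, adjusted p = 0.0151). Eln did not pass the threshold without Wt_37 (0.89, adjusted p = 0.0532), without Wt_55 (0.99, adjusted p = 0.064) or without AkCk_24 (0.97, adjusted p = 0.0548), and its adjusted p over 16 alternatives ran from 7.37e-07 to 0.064. In the kidneys heterozygous for 1 of the sets, Eln had 266, 231 and 183 CPM in AkCh and 266, 315 and 474 CPM in AhCk. AkCh lay within the range of Wt, and AhCk was spread widely, with AhCk_38 below Wt_30 and AhCk_115 near the AkCk level. A long noncoding RNA, Gm30003, overlaps 1657 of the 8098 exon bases of Eln and has no entry in the count table, so reads shared between them were not told apart.

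The fibrillins form the beaded backbone of the microfibril, and Fbn1 (gene ID 14118, minus strand of chromosome 2 from 125300594 to 125506485) codes for the one that prevails after birth. Fbn1 had 294, 325 and 318 CPM in AkCk and 156, 176 and 159 CPM in Wt. Both groups were tight, and the lowest AkCk library was well above the highest Wt library. Its log2 fold change was 0.93 (SE 0.08, adjusted p = 0.00145), and it passed the threshold in each of the 6 fits that left out 1 library. With Xist as a covariate in a fit of all 12 libraries, the value was 0.73 with an adjusted p of 0.103, the highest of 16 alternatives, of which the lowest was 4.14e-22. In AkCh, Fbn1 had 109, 198 and 146 CPM, and in AhCk 133, 223 and 256 CPM. The lowest of all 12 libraries was AkCh_20, and AhCk_38 was the lowest of its group.

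Fbn2 (gene ID 14119) codes for the fibrillin that is made mostly before birth. It had 222, 169 and 196 CPM in AkCk and 151, 188 and 231 CPM in Wt, with 215, 168 and 119 CPM in AkCh and 93.0, 229 and 248 CPM in AhCk. The AkCk libraries fell inside the Wt range, and the widest spread was within AhCk, where AhCk_38 was the lowest of the 12. The log2 fold change in AkCk was 0.04 (SE 0.16, adjusted p = 0.884), with a 95% interval from -0.34 to 0.42. This interval lies below the one for Fbn1, from 0.75 to 1.12, though the difference between these genes was not tested. Its sign turned to -0.02 with library size as the only scaling, to -0.10 without Wt_30 and to -0.06 without AkCk_24. A long noncoding RNA without an entry in the count table, Gm41741, overlaps 278 of the 13215 exon bases of Fbn2.

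Mfap2 and Mfap5 code for small glycoproteins that bind fibrillin on the microfibril. Mfap5 (gene ID 50530, plus strand of chromosome 6 from 122513584 to 122529290) had 45.8, 53.7 and 34.2 CPM in AkCk and 9.95, 11.3 and 12.03 CPM in Wt. Each AkCk library was far above each Wt library. This was the largest fold change among the 10 members, 4.01, a log2 fold change of 2.00 (SE 0.17, adjusted p = 0.00145). It was past the threshold in each of 15 alternatives, with an adjusted p from 7.62e-26 to 0.0113, and was not tested under the paper's filter on low levels as recomputed here with merged exon lengths. The paper's own table of changed genes, made with that filter, holds Mfap5. Mfap5 had 22.2, 14.9 and 13.4 CPM in AkCh and 16.3, 13.9 and 18.3 CPM in AhCk. All 6 of these libraries lay above the highest Wt library and below the lowest AkCk library.

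Mfap2 (gene ID 17150, plus strand of chromosome 4 from 141010424 to 141015976) had 124, 135 and 133 CPM in AkCk and 87.6, 123 and 116 CPM in Wt. The 3 AkCk libraries were above the 3 Wt libraries by a narrow margin, AkCk_24 over Wt_37. The log2 fold change of 0.26 (SE 0.13, adjusted p = 0.195) was not past the threshold, with a 95% interval from -0.03 to 0.55. Over 16 alternatives, none past the threshold, it ran from 0.13 without Wt_30 to 0.55 with Xist as a covariate. In AhCk the levels were 109, 121 and 135 CPM, while in AkCh they were 237, 92.0 and 92.0 CPM. The value of AkCh_20 is the highest of the 12 and more than 2 times that of the other AkCh libraries.

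Mfap4 (gene ID 76293, plus strand of chromosome 11 from 61485431 to 61488708) codes for a fibrinogen-related glycoprotein that binds tropoelastin and fibrillin. It had 137, 179 and 139 CPM in AkCk and 89.0, 103 and 112 CPM in Wt. The AkCk libraries were above the Wt libraries, AkCk_27 most of all. Its log2 fold change was 0.58 (SE 0.13, adjusted p = 0.0278). The call was lost in 8 of 16 alternatives. These were the fits without Wt_37 (0.60, adjusted p = 0.0928), Wt_55 (0.66, adjusted p = 0.0576), AkCk_24 (0.65, adjusted p = 0.0542) or AkCk_27 (0.45, adjusted p = 0.0542), and those with all 12 libraries (0.58, adjusted p = 0.196), with the 9 libraries of run1008 (0.58, adjusted p = 0.281), with Xist as a covariate (0.77, adjusted p = 0.122) and by limma (0.59, adjusted p = 0.0663). The lowest adjusted p of the 16 was 0.000632. Mfap4 had 176, 92.5 and 80.9 CPM in AkCh and 85.1, 99.5 and 105 CPM in AhCk. AkCh_20 again stood out, at the level of the AkCk libraries, and the other 5 libraries were in or near the Wt range.

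Fibulins link elastin to microfibrils and to basement membranes, and Fbln2 (gene ID 14115, plus strand of chromosome 6 from 91212460 to 91272540) codes for one that binds both tropoelastin and fibrillin. Fbln2 had 101, 119 and 84.3 CPM in AkCk and 29.02, 28.9 and 28.3 CPM in Wt. The Wt libraries were almost equal, and the lowest AkCk library had more than 2 times their level. The log2 fold change was 1.82 (SE 0.12, adjusted p = 0.000668), the lowest p of the 10 members and the 14th lowest of the 15839 genes tested. Its adjusted p stayed between 3.89e-36 and 0.0083 over 16 alternatives, all past the threshold. In AkCh it had 43.2, 34.4 and 27.6 CPM and in AhCk 33.4, 47.9 and 57.1 CPM. All 3 AhCk libraries were above Wt and below AkCk, while AkCh_33 was just below the Wt libraries.

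Fbln5 (gene ID 23876, minus strand of chromosome 12 from 101746565 to 101819119) codes for a fibulin that binds tropoelastin and cell-surface integrins and is needed to form elastic fibres. Its levels were 283, 282 and 267 CPM in AkCk and 149, 155 and 158 CPM in Wt. Both groups were tight and far apart. The log2 fold change was 0.85 (SE 0.07, adjusted p = 0.00123), past the threshold in each of 16 alternatives with an adjusted p from 1.39e-27 to 0.023. Fbln5 had 237, 158 and 155 CPM in AkCh and 166, 176 and 211 CPM in AhCk. AkCh_20 was high here too, and AkCh_33 was within the Wt range.

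Fbln1 (gene ID 14114, plus strand of chromosome 15 from 85205949 to 85286294) codes for a fibulin found within the elastic core and in basement membranes. It had 244, 314 and 314 CPM in AkCk and 164, 205 and 194 CPM in Wt. AkCk_24 was the lowest AkCk library and was above the highest Wt library, Wt_37. The log2 fold change was 0.63 (SE 0.13, adjusted p = 0.0215). Fbln1 did not pass the threshold without Wt_37 (0.71, adjusted p = 0.0574), Wt_55 (0.65, adjusted p = 0.0734), AkCk_27 (0.57, adjusted p = 0.0598) or AkCk_29 (0.57, adjusted p = 0.0525), nor by limma (0.64, adjusted p = 0.0564), and the adjusted p over 16 alternatives ran from 0.000113 to 0.0734. Levels were 234, 197 and 196 CPM in AkCh and 192, 203 and 220.2 CPM in AhCk, and 4 of these 6 were within the Wt range.

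The promoters of these 3 fibulin genes are shown because the genes rose together in AkCk. Each window runs from 250 bases before to 50 bases after a transcript's start in RefSeq, build GRCm38.p6, and is written 5′ to 3′ on the strand of the gene. The windows are chr15:85205699-85205998 on the plus strand for Fbln1, chr6:91212514-91212813 on the plus strand for Fbln2, and chr12:101819070-101819369 on the minus strand for Fbln5. Capitals mark matches on either strand to 4 words: TTTAT, the core word of Abdominal-B class Hox proteins, TGATTTA, a longer word of Hox and Pbx proteins, TATAAA, the TATA box, and CACGTG, an E-box.
Fbln1: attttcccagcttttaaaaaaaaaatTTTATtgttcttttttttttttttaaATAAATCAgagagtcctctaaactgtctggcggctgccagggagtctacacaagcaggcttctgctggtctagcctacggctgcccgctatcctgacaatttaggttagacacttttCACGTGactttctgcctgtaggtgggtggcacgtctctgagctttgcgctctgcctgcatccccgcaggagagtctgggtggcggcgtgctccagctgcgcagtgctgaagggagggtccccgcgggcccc
Fbln2: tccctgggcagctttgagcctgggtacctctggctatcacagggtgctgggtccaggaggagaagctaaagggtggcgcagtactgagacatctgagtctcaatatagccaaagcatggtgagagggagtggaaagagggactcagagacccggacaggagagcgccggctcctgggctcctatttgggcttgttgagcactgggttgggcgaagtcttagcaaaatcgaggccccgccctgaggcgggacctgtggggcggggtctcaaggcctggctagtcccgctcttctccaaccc
Fbln5: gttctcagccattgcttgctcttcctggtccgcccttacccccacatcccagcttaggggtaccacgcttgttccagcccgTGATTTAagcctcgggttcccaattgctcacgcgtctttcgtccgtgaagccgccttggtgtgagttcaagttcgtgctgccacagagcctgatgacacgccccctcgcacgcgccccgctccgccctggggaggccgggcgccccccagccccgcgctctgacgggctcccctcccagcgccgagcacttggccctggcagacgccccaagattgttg
The Fbln1 window holds TTTAT at 2 places, of which 1 is on the other strand and overlaps a TGATTTA there, and it holds CACGTG once. The Fbln5 window holds TGATTTA once, and the Fbln2 window holds none of the 4 words. RefSeq's table has promoters for 6 of the 10 members, 9 windows in all. A further Fbln1 window, which overlaps the one shown, holds the same CACGTG, and the other 5 windows, of Fbn1, Mfap2, Fbln5 and Emilin1, hold none of the words. Of 32851 promoters of the same length, 40% hold TTTAT, 2.97% TGATTTA, 13.6% TATAAA and 7.15% CACGTG. A match is a run of letters and not a known binding site, and a window without one says nothing about the factor. GC content was 51.7% in the Fbln1 window, 60.3% in that of Fbln2 and 65.7% in that of Fbln5, against a median of 52.7% over all promoters.

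Emilin1 (gene ID 100952, plus strand of chromosome 5 from 30913387 to 30921279) codes for a glycoprotein at the interface of elastin and microfibrils. It had 384, 429.6 and 468 CPM in AkCk, 309, 343 and 336 CPM in Wt, 374, 368 and 348 CPM in AkCh and 377, 408 and 423 CPM in AhCk. All 9 mutant libraries were above the highest Wt library, AhCk and AkCk overlapped, and AkCh lay below both. In AkCk the log2 fold change was 0.37 (SE 0.09, adjusted p = 0.0404), the smallest of the 8 that passed. This call was lost in each of the 6 fits that left out 1 library, with an adjusted p of 0.0547, 0.11 and 0.119 without Wt_30, Wt_37 and Wt_55 and of 0.0526, 0.0842 and 0.0944 without AkCk_24, AkCk_27 and AkCk_29. It was also lost with library size only (0.0686), under the paper's filter as recomputed here (0.0611), with the 9 libraries of run1008 (0.0876), with Xist as a covariate (0.0915) and by limma (0.076), so it held in 5 of 16 alternatives. Over these 16 its adjusted p ran from 0.00292 to 0.119 and its log2 fold change from 0.30 to 0.45.

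The kidneys that kept 1 normal copy of each gene of a set were compared with the same 3 Wt libraries, so these comparisons share their controls with the one above. In AkCh against Wt, none of the 10 members was past the threshold in edgeR, and none in DESeq2, while 1 had an unadjusted p below 0.05. Over all genes 0% were past it in edgeR (0 of 15789), 22 in DESeq2 (0.139%), and 360 (2.28%) had an unadjusted p below 0.05. This last count was 1813 of 15967 genes (11.4%) without AkCh_20, 375 without AkCh_33, 307 without Wt_30, 174 without Wt_37 and 172 without Wt_55. The member with an unadjusted p below 0.05 was Mfap5, with a log2 fold change of 0.60 (SE 0.22, adjusted p = 1.00). The count of members at an unadjusted p below 0.05 was 0 without Wt_30, Wt_37 or Wt_55 and 2 without AkCh_33. In 2 members, Mfap5 and Emilin1, the 3 AkCh libraries lay above the 3 Wt libraries, beside 3.58% of all genes tested, and in none of them below, beside 4.77%. The median over the members was 0.18, beside 0.03 over all genes. Fold changes of the other 9 members ran from -0.18 for Fbn2 to 0.37 for Mfap2 on the log2 scale. The intervals were wide: for Eln the log2 fold change was 0.00 with a 95% interval from -0.50 to 0.50, and for Mfap2 the interval ran from -0.61 to 1.34. Without AkCh_20, 8 genes passed the threshold in all (0.0501%) and still none of the members, but the log2 fold change of Mfap2 turned to -0.25, that of Mfap4 from 0.20 to -0.23 and that of Fbn1 from -0.11 to 0.07. Values also came down without AkCh_20, to 0.35 for Mfap5, from 0.29 to 0.11 for Fbln2, from 0.16 to 0.07 for Fbln1 and from 0.25 to 0.02 for Fbln5. Without AkCh_33, that of Fbn2 was 0.01.

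In AhCk against Wt, none of the 10 members was past the threshold in edgeR, while 5 had an unadjusted p below 0.05 and 4 were past it in DESeq2. Over all genes 2.36% were past it (376 of 15902), 0.836% with a rise and 1.53% with a fall, and 3349 (21.1%) had an unadjusted p below 0.05. The 5 members were Mfap5 (log2 fold change 0.55, SE 0.13, adjusted p = 0.0825), Fbln2 (0.69, SE 0.18, adjusted p = 0.0939), Emilin1 (0.30, SE 0.08, adjusted p = 0.0985), Fbln5 (0.27, SE 0.10, adjusted p = 0.184) and Eln (0.64, SE 0.24, adjusted p = 0.185). DESeq2 passed Fbln2, Mfap5, Emilin1 and Eln, with adjusted p of 0.00495, 0.00968, 0.0148 and 0.0443, beside 8.29% of all genes (1318 of 15902). In 4 of these 5, all but Eln, the 3 AhCk libraries were above the 3 Wt libraries, beside 11.4% of all genes tested, and in none below, beside 15.3%. The members' median was 0.29, beside 0.01 over all genes. The remaining 5 had log2 fold changes of 0.33 for Fbn1, 0.17 for Mfap2, 0.14 for Fbln1, 0.01 for Fbn2 and -0.06 for Mfap4. Over 15 alternatives the value for Mfap2 ran from 0.03 to 0.35 and that for Fbln1 from 0.04 to 0.21. Both low values were those without Wt_30. AhCk_38 had the lowest value of its group for 9 of the members, all but Mfap5. Without it, Fbn1 (0.55, adjusted p = 0.0443) and Fbln2 (0.87, adjusted p = 0.0116) passed the threshold, and 2.1% of all genes did. Over 15 alternatives the adjusted p of Fbn1 ran from 0.0443 to 0.911 and that of Fbln2 from 0.00495 to 0.303. Without AhCk_115 the log2 fold change was 0.37 for Eln, 0.16 for Fbln5 and 0.13 for Fbn1. Without AhCk_115, Wt_37 or Wt_55, 3 members had an unadjusted p below 0.05, Mfap5, Fbln2 and Emilin1. Over all genes 3050 of 16019 had one without AhCk_115, 2056 of 16068 without Wt_37 and 2300 of 16196 without Wt_55. Without AhCk_110, 5 members and 2223 of 16047 genes had one. The count past the threshold over all genes was 63 without AhCk_110, 99 without AhCk_115, 60 without Wt_37 and 70 without Wt_55. Since the 2 groups were sequenced in different runs, a difference between runs cannot be told apart from one between genotypes here.

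**Figure D2:**
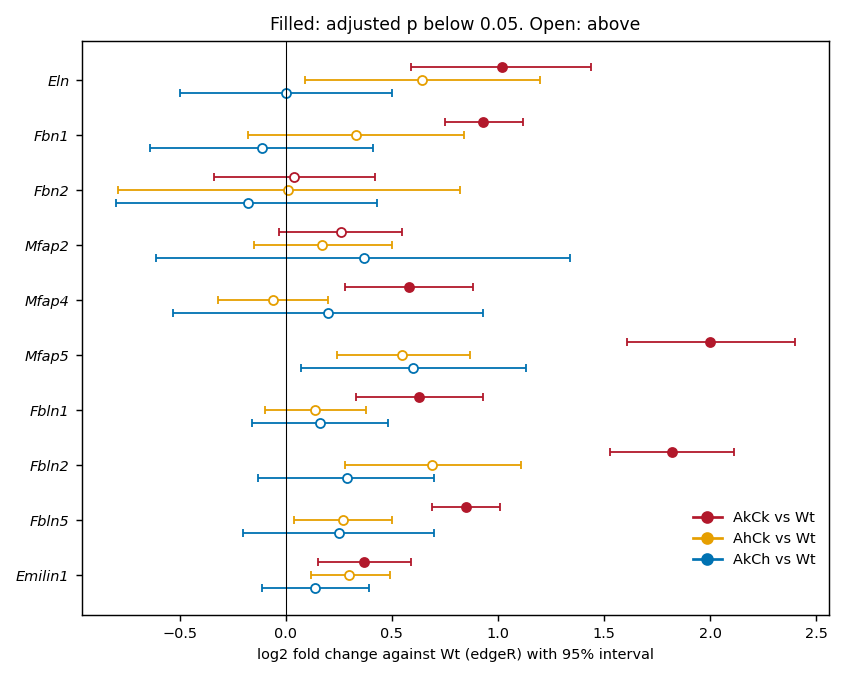
Log2 fold change against Wt (horizontal axis) of each member in AkCk, AhCk and AkCh, as points with 95% intervals from edgeR, filled where the adjusted p was below 0.05. The 8 filled points all belong to AkCk and run from 0.37 for Emilin1 to 2.00 for Mfap5.

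AkCk was also compared with AkCh, in which 1 copy of each Hoxc gene is normal, and both groups come from run1008. By the paper's text AkCk kidneys kept working Hoxa11 alleles, while the labels give AkCh as homozygous mutant for Hoxa11, so these groups may differ in Hoxa11 as well as in the Hoxc genes. None of the 10 members was past the threshold in edgeR, 6 had an unadjusted p below 0.05, and 4 were past it in DESeq2. Over all genes 0% were past it in edgeR (0 of 15764), 1787 (11.3%) had an unadjusted p below 0.05, and 554 (3.51%) were past it in DESeq2. The median over the members was 0.55, beside -0.01 over all genes, and in 7 members the 3 AkCk libraries lay above the 3 AkCh libraries, beside 9.95% of all genes tested, and in none below, beside 13.1%. The 6 with an unadjusted p below 0.05 were Fbln2 (log2 fold change 1.55, SE 0.21, adjusted p = 0.111), Mfap5 (1.42, SE 0.26, adjusted p = 0.161), Eln (1.03, SE 0.21, adjusted p = 0.190), Fbn1 (1.07, SE 0.22, adjusted p = 0.201), Fbln5 (0.62, SE 0.19, adjusted p = 0.344) and Fbln1 (0.49, SE 0.16, adjusted p = 0.351). For Emilin1 the value was 0.25, for Fbn2 0.24, for Mfap4 0.40 and for Mfap2 -0.09. This comparison turned on AkCh_20. Without it, 687 of 15986 genes (4.3%) and 7 of the 10 members were past the threshold: Fbln5 (0.85, adjusted p = 0.0109), Fbln2 (1.73, adjusted p = 0.0137), Mfap5 (1.68, adjusted p = 0.0156), Mfap2 (0.53, adjusted p = 0.0208), Eln (1.17, adjusted p = 0.0260), Fbn1 (0.88, adjusted p = 0.0286) and Mfap4 (0.83, adjusted p = 0.0308). Fbln1 (0.58, adjusted p = 0.0542), Emilin1 (0.28) and Fbn2 (0.47) were not. All 10 members and 3739 genes (23.4%) then had an unadjusted p below 0.05. Of the members, 4 had one without AkCh_31 or AkCh_33, beside 1386 of 15978 and 1655 of 16005 genes. Without AkCk_24 and AkCk_27, 6 and 5 members had one, beside 1047 of 15967 and 905 of 15943 genes. Across 16 alternatives, 15 for Mfap5, the highest adjusted p of these 7 members lay between 0.505 for Fbln2 and 0.983 for Mfap2. None of the members passed when AkCh_31, AkCh_33 or any AkCk library was left out instead. What sets AkCh_20 apart was not tested.

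**Figure D3:**
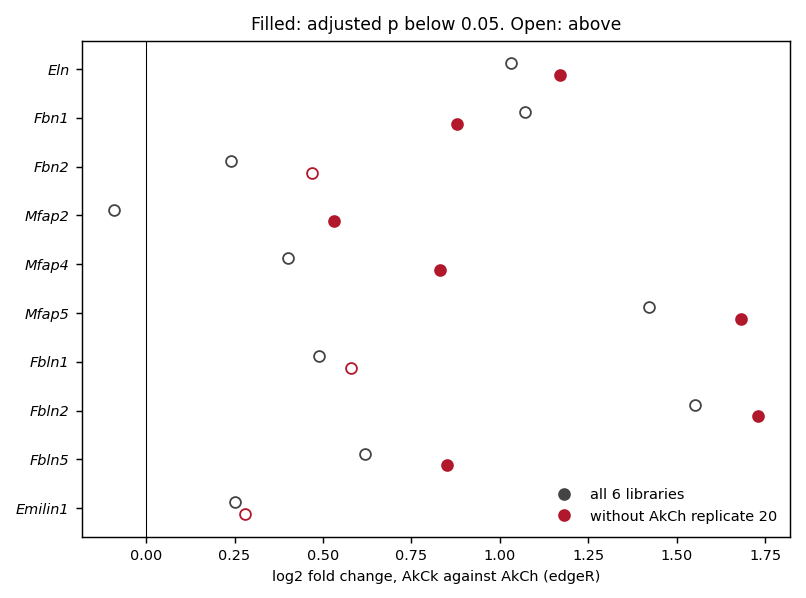
Log2 fold change of each member in AkCk against AkCh (horizontal axis) with all 6 libraries (grey) and without AkCh_20 (red), filled where edgeR's adjusted p was below 0.05. None of the 10 points is filled with all 6 libraries and 7 are without AkCh_20, among them Mfap2, which moved from -0.09 to 0.53.

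How the members vary together was described by Pearson's r of log2 CPM over the 12 libraries, with no test, since the libraries fall into 4 genotypes. Of the 45 pairs, 29 had r above 0.5 and the median was 0.68. The closest were Mfap5 with Fbln5 (0.96), Mfap5 with Fbln2 (0.95) and Fbln2 with Fbln5 (0.94). Without the 3 AkCk libraries the median over pairs was 0.53, and these 3 pairs had 0.89, 0.69 and 0.80. Fbn1 changed most without them, from 0.67 to -0.16 with Mfap5, from 0.63 to -0.08 with Fbln5, from 0.68 to 0.02 with Fbln1 and from 0.36 to -0.34 with Mfap4. With Mfap2 it had -0.32, so 4 pairs were then below 0. Over all 12 libraries the pair below 0 was Fbn1 with Mfap2, at -0.06, 2 members that AkCh_20 pulls in opposite directions, being the lowest library for Fbn1 and the highest for Mfap2. Fbn2 had the lowest mean r with the other members, 0.36, and Fbln5 the highest, 0.76.

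**Figure D4:**
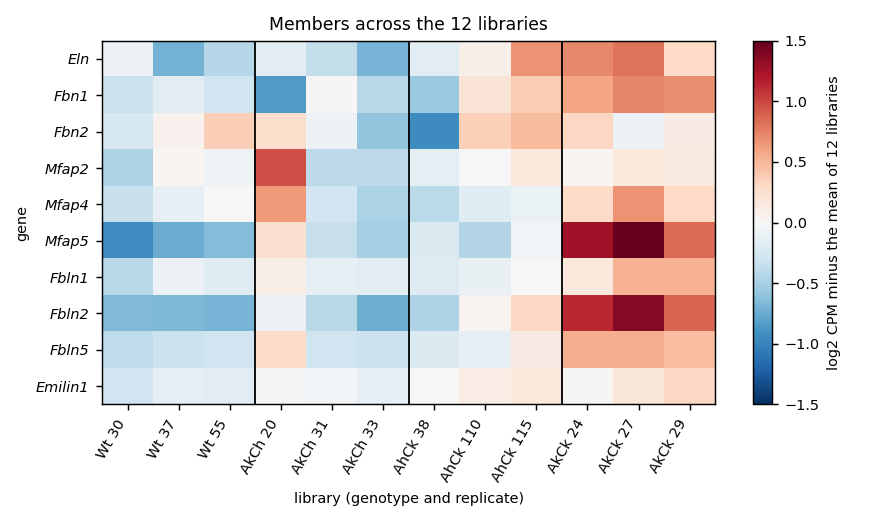
Log2 CPM of each member (vertical axis) minus its mean over the 12 libraries (horizontal axis, ordered by genotype), as colours from blue (lower) to red (higher). Mfap5 and Fbln2 are the deepest red in the 3 AkCk columns, and AkCh_20 is red for Mfap2 and Mfap4 and blue for Fbn1.

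The genes most like the members were sought among 16250 other genes by their r over the 12 libraries with the mean standardised log2 CPM of the 10 members. This mean was -0.97, -0.55 and -0.49 in Wt, 0.41, -0.52 and -0.95 in AkCh, -0.72, 0.03 and 0.50 in AhCk and 0.93, 1.30 and 1.04 in AkCk. It was highest in the AkCk libraries, and AhCk_115 and AkCh_20 came next. With r above 0.9 there were 65 genes, and the closest 5 were Thbs3 (0.956), Col1a1 (0.956), LOC101055828 (0.951), Gpr133 (0.949) and Bgn (0.949). Thbs3 codes for a thrombospondin, Col1a1 for a chain of type I collagen, Gpr133 for an adhesion receptor and Bgn for the proteoglycan biglycan. Bgn had 460.1, 547 and 465 CPM in AkCk and 263, 273 and 292 CPM in Wt, and Thbs3 17.2, 19.7 and 15.8 and 7.45, 9.57 and 10.00 CPM. The genes were ranked on a mean that is highest in AkCk, so a higher level there is built into the choice and no test of it is given.

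The other proteins that build elastic fibres were followed in lists of genes. In AkCk 6.31% of all genes tested rose and 7.4% fell past the threshold, the shares beside which the counts of each list and marker list below stand. The assembly list holds 19 further genes, namely other fibulins and EMILINs, latent TGF-beta binding proteins and ADAMTS-like partners of fibrillin. Of these 19, 10 rose and 1 fell past the threshold in AkCk, with a median log2 fold change of 0.51. Genes of the latent TGF-beta binding protein family were among those of the list that moved. Ltbp2 had 5.28, 13.3 and 4.73 CPM in AkCk and 1.38, 0.554 and 0.693 CPM in Wt. Its groups did not overlap, with AkCk_27 far above the rest, and its log2 fold change was 3.16 (SE 0.51, adjusted p = 0.0102). Ltbp4, the gene with the highest level of the list, had 258, 360.4 and 278 CPM in AkCk and 191, 191 and 186 CPM in Wt. Its groups did not overlap, and it rose by 0.66 on the log2 scale (SE 0.12, adjusted p = 0.0172). Ltbp3 rose by 0.34 (SE 0.09, adjusted p = 0.0428), while Ltbp1 was not past the threshold (-0.18, adjusted p = 0.282).

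Of the remaining assembly genes, Mmrn1, a relative of the EMILINs made by endothelial cells and platelets, had 11.0, 23.6 and 18.2 CPM in AkCk and 3.34, 2.31 and 2.05 CPM in Wt. The lowest AkCk library was above each of the other 9. It rose by 2.78 on the log2 scale (SE 0.31, adjusted p = 0.00351). Adamtsl4 (1.27), Emilin2 (1.09), Adamtsl5 (1.04), Fbln7 (1.02), Efemp2 (0.33) and Mmrn2 (0.32) also rose, with adjusted p from 0.00437 for Fbln7 to 0.0421 for Mmrn2. Efemp2 codes for a fibulin that brings lysyl oxidase to tropoelastin. The gene that fell was Hmcn1, for the large extracellular protein hemicentin, with 69.8, 83.8 and 63.5 CPM in AkCk and 96.7, 132 and 126 CPM in Wt. Its AkCk libraries were below the Wt libraries but within the range of AkCh, which was 43.1, 87.8 and 69.4 CPM, and it fell by 0.71 on the log2 scale (SE 0.14, adjusted p = 0.0211). In AhCk, 2 genes of this list were past the threshold, Mmrn1 (1.24, adjusted p = 0.0368) and Adamtsl4 (0.73, adjusted p = 0.0456), beside 2.36% of all genes tested. The median was 0.29. In edgeR the count was 0 in AkCh against Wt (4 at an unadjusted p below 0.05, 0 in DESeq2, median -0.09) and 0 in AkCk against AkCh (11 at an unadjusted p below 0.05, 9 in DESeq2, median 0.54).

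Leaving out single libraries changed these counts. In AkCk against Wt, 11 of the 19 were past the threshold with all libraries, 5 without Wt_37, 5 without Wt_55, 7 without AkCk_29, 8 without AkCk_24 or AkCk_27 and 11 without Wt_30. Ltbp2, Mmrn1, Adamtsl4, Emilin2 and Fbln7 passed in each of these 6 fits. Ltbp4 and Adamtsl5 were lost without Wt_37 or Wt_55, Hmcn1 also without AkCk_24 or AkCk_29. Efemp2 and Mmrn2 passed without Wt_30 and in none of the other 5 fits, and Ltbp3 passed in none of the 6. Genes were also gained, Ltbp1 without Wt_30 and Emilin3 without AkCk_24. With all libraries their log2 fold changes were -0.18 and 0.8, neither past the threshold. In AhCk against Wt, Mmrn1 passed without Wt_30, and the count was 0 in the other 5 fits. Without AkCh_20, 5 genes passed in AkCk against AkCh, beside 4.3% of all genes tested: Efemp2, Fbln7, Mmrn1, Ltbp2 and Adamtsl4. In AkCh against Wt edgeR then passed 0, with 3 at an unadjusted p below 0.05.

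Of the 5 lysyl oxidase genes, whose enzymes crosslink elastin and collagen, Lox rose in AkCk and the other 4 were not past the threshold, with a list median of 0.32. Lox had 298, 379 and 266 CPM in AkCk, 127, 114.6 and 96.9 CPM in Wt, 78.3, 160.3 and 148 CPM in AkCh and 147, 118 and 136 CPM in AhCk. The AkCk libraries were above the other 9, and the log2 fold change against Wt was 1.48 (SE 0.15, adjusted p = 0.00261). The study's own list of changed genes, drawn from these libraries, also holds Lox, so this rise is no independent evidence. The paper also reports raised LOX protein by immunofluorescence in E18.5 mutant kidneys. Loxl2 had another pattern, with 221, 204 and 231 CPM in AhCk, 90.6, 106 and 102 CPM in Wt, 80.6, 139 and 63.9 CPM in AkCh and 83.2, 86.1 and 122 CPM in AkCk. The 3 AhCk libraries, those of run1646, were above the other 9. Loxl2 was the lysyl oxidase gene past the threshold in AhCk against Wt (1.15, SE 0.09, adjusted p = 0.00133), where run and genotype cannot be told apart, and its log2 fold change in AkCk was -0.03 (SE 0.15, adjusted p = 0.896). Both calls held in each of the 6 fits that left out 1 library. In edgeR the list's count was 0 in AkCh against Wt (0 at an unadjusted p below 0.05, 0 in DESeq2, median 0.02) and 0 in AkCk against AkCh (1 at an unadjusted p below 0.05, 1 in DESeq2, median 0.32). Without AkCh_20, Lox and Loxl1 passed in AkCk against AkCh, beside 4.3% of all genes tested. In AkCh against Wt edgeR passed 0 without it, with 2 at an unadjusted p below 0.05.

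Cells hold elastic fibres through integrins and the elastin receptor complex. Of 13 such genes, 3 rose in AkCk, beside 6.31% of all genes tested: Itgb3 (1.03, SE 0.19, adjusted p = 0.0172), Itgav (0.42, SE 0.11, adjusted p = 0.0402) and Itgb5 (0.31, SE 0.07, adjusted p = 0.0291). Their products pair as integrins of alpha V with beta 3 or beta 5. The list's median was 0.32 and its most abundant gene was Itgb1. None of the 3 passed without Wt_37, Wt_55 or AkCk_24, and without AkCk_27 Itgb3 alone did, while 4 genes passed without Wt_30 or AkCk_29. The fourth was Itgb8 without Wt_30 and Itga8 without AkCk_29. Over all libraries Itga8 had a log2 fold change of -0.39, which was not past the threshold (SE 0.13, adjusted p = 0.0914). In edgeR the count was 0 in the other comparisons, with 0, 1 and 5 genes at an unadjusted p below 0.05 and 0, 0 and 2 past the threshold in DESeq2 in AkCh against Wt, AhCk against Wt and AkCk against AkCh. Medians in that order were 0.04, 0.14 and 0.22. Without AkCh_20 edgeR passed 0 in AkCh against Wt and 0 in AkCk against AkCh, with 1 and 6 genes at an unadjusted p below 0.05.

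Of 9 genes for enzymes that can degrade elastin, Mmp7, Mmp12 and Elane were too low to test. In edgeR none of the other 6 was past the threshold in AkCk, AkCh or AhCk against Wt or in AkCk against AkCh, with 3, 1, 1 and 1 at an unadjusted p below 0.05 and 2, 0, 0 and 1 past the threshold in DESeq2. Ctsl and Ctss passed in AkCk against Wt without AkCk_29, and Ctsk passed without Wt_55 in AkCk and in AhCk against Wt. Medians in the order given were 0.28, -0.01, 0.07 and 0.43, and the most abundant of these genes was Ctsl. The 9 levels added up to 716, 730.1 and 737 CPM in Wt, 682, 712 and 712 CPM in AkCh, 719.9, 687 and 738 CPM in AhCk and 847, 908 and 797 CPM in AkCk, where each sum was above the other 9. Without AkCh_20 edgeR passed 0 of the 6 in AkCh against Wt and 0 in AkCk against AkCh, with 2 and 3 at an unadjusted p below 0.05.

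Marker genes of the cells that make elastic fibres, and of neighbouring tissues, are given beside these results, as levels in the 12 libraries in the order of replicates used above. The 12 stromal markers added up to 3410.0, 3602 and 3399 CPM in Wt, 4649, 4626 and 3629 CPM in AkCh, 4155, 5168 and 5561 CPM in AhCk and 8373, 10160.0 and 9291 CPM in AkCk. Every AkCk sum was above the other 9 sums, and Col3a1, the most abundant gene, made up much of it, with 4006, 5122 and 4518 CPM in AkCk. Mean levels in Wt and AkCk were 1546 and 4549 CPM for Col3a1 and 829 and 3049 CPM for Col1a1, so these sums mostly follow collagen transcripts. Col1a1, Col3a1, Dcn and Lum code for matrix proteins and are on the study's own list of changed genes, drawn from these libraries. Their rise here is no independent evidence. In AkCk 7 of the 12 rose and none fell (Foxd1, Pdgfra, Tbx18, Col1a1, Col3a1, Dcn and Lum), beside 6.31% and 7.4% of all genes tested. The median log2 fold change of the 12 was 0.73. Foxd1, which marks stromal progenitors, rose by 0.66 (adjusted p = 0.0102). These 7 passed in each of the 6 fits that left out 1 library. The other 5 did not pass and had log2 fold changes of 0.27 for Pdgfrb, 0.21 for Cspg4, -0.06 for Tcf21, -0.14 for Meis1 and -0.45 for Meis2 (adjusted p = 0.0586). Meis2 had 117, 108 and 141 CPM in AkCk and 141, 177 and 182 CPM in Wt, and it fell past the threshold without Wt_30 or AkCk_29. In AhCk 2 of the 12 rose, Col3a1 and Lum, and neither passed without AhCk_110, AhCk_115, Wt_37 or Wt_55.

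The 9 smooth muscle markers added up to 706, 785 and 704 CPM in Wt, 963, 657 and 703 CPM in AkCh, 656, 719 and 760.0 CPM in AhCk and 978, 1062 and 939.5 CPM in AkCk. The AkCk sums were above the Wt and AhCk sums, and AkCh_20 lay among them. In AkCk 5 of the 9 rose (Acta2, Myh11, Tagln, Actg2 and Myocd), beside 6.31% of all genes tested, with a median of 0.54. Of the 9, 2 passed without Wt_37, 1 without Wt_55 and 4 without AkCk_24 or AkCk_27. In AhCk Myocd rose, and it did not pass without AhCk_110, AhCk_115, Wt_37 or Wt_55. Smtn had 128, 134 and 129 CPM in AkCk and 143, 137 and 141 CPM in Wt, lower without overlap, with a log2 fold change of -0.11 that was not past the threshold (adjusted p = 0.273). Acta2 was the most abundant. The 10 endothelial markers added up to 954, 1025 and 956 CPM in Wt, 826, 965 and 965 in AkCh, 956, 979.7 and 1010.0 in AhCk and 1078, 1146 and 1062 in AkCk, with Cdh5 the most abundant. Each AkCk sum was above the other 9. In AkCk 1 of the 10 markers rose, Gja5, a marker of arteries, beside 6.31% of all genes tested, and the median was 0.07. Gja5 did not pass without AkCk_24, AkCk_27, Wt_37 or Wt_55. The part of these cells in the result was not tested.

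Nephron and collecting duct markers, 10 in all, added up to 3596, 2375 and 2275 CPM in Wt, 1438, 3332 and 3626 CPM in AkCh, 3620.0, 2571 and 2355 CPM in AhCk and 3434, 4684 and 3049 CPM in AkCk. The groups overlapped, and AkCh_20 was the lowest. Lrp2 was the most abundant of these genes by CPM, and Aqp2 per kilobase of merged exons. The 6 urothelial markers added up to 50.8, 69.7 and 62.7 CPM in Wt, 81.6, 59.1 and 45.9 in AkCh, 43.8, 66.2 and 28.9 in AhCk and 28.3, 85.5 and 60.5 in AkCk, with Upk3a the most abundant. These sums overlapped, and in edgeR 0 of the 6 passed in the 4 comparisons, with 1 at an unadjusted p below 0.05 and 1 past the threshold in DESeq2, both in AkCk against Wt. The 4 mesothelial markers added up to 49.0, 66.7 and 61.4 CPM in Wt, 69.1, 45.4 and 38.4 in AkCh, 46.1, 54.3 and 38.5 in AhCk and 55.2, 120.5 and 95.5 in AkCk, with Krt19 the most abundant. AkCk_27 and AkCk_29 were above the other libraries and AkCk_24 was not, and in AkCk 2 of the 4 rose, Upk3b and Lrrn4, but neither without Wt_37 or Wt_55. The part of these tissues in the result was not tested.

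Markers of tissues beside the kidney were also followed. The 4 adipocyte markers added up to at most 0.495 CPM in a library, with Cidec the most abundant and Lep at 0 counts in all 12, and none was high enough to test. Of 7 adrenal and gonad markers, which added up to between 5.90 and 9.15 CPM with Star the most abundant, 4 could be tested. In edgeR 0 of them were past the threshold in the 4 comparisons, with 1 at an unadjusted p below 0.05 and 1 past it in DESeq2, both in AkCk against Wt. Skeletal muscle and cartilage markers, 7 in all, added up to 47.11, 70.0 and 86.7 CPM in Wt, 101, 50.7 and 45.8 in AkCh, 46.3, 67.3 and 87.6 in AhCk and 33.3, 19.8 and 54.5 in AkCk, with Col2a1 the most abundant. AkCk_24 and AkCk_27 had the lowest sums, and Myog rose in AkCk, but not without AkCk_24, Wt_37 or Wt_55. The 4 peripheral nerve markers added up to 43.7, 23.4 and 23.4 CPM in Wt, 8.57, 41.8 and 44.5 in AkCh, 48.4, 41.7 and 32.9 in AhCk and 34.3, 44.3 and 32.9 in AkCk, with Erbb3 the most abundant. Their groups overlapped, and Sox10 rose in AkCk, but not without AkCk_24, AkCk_27, Wt_37 or Wt_55. Of the 73 genes in these 10 marker lists, none was past the threshold in edgeR in AkCh against Wt (2 at an unadjusted p below 0.05, 1 in DESeq2, and without AkCh_20 still 0 in edgeR, with 10 at an unadjusted p below 0.05) or in AkCk against AkCh (18 at an unadjusted p below 0.05, 9 in DESeq2, and 9 in edgeR without AkCh_20). The 9 without AkCh_20, beside 4.3% of all genes tested, were the stromal markers Tbx18, Col1a1, Col3a1, Dcn and Lum and the smooth muscle markers Acta2, Tagln, Cnn1 and Actg2.

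**Figure D5:**
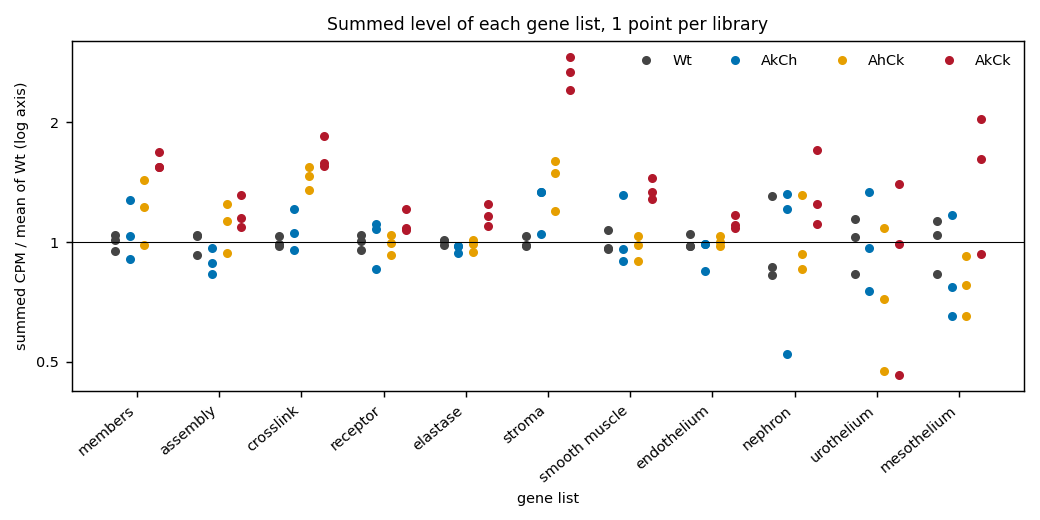
Summed CPM of the members and of 10 gene lists in each library, divided by the mean of Wt (vertical log axis), 1 point per library in 4 genotypes. For the members and the lysyl oxidase, elastin-degrading, stroma and endothelium lists the 3 AkCk points lie above the other 9, while for nephron and urothelium the genotypes overlap.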

How the data were processed

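RNA of whole kidneys from E18.5 mouse embryos was sequenced by the authors in 12 libraries, with paired-end TruSeq reads aligned to mm10 in Strand NGS and reads at more than 1 position removed. The authors deposited expected counts per gene, which carry fractions, and, separately, normalized values on the log2 scale with each gene set to its median over the libraries. Expected counts were rounded here and tested in edgeR 4.0.16 (R 4.3.3) with TMM scaling, filterByExpr (minimum count 10, minimum total 15) and the quasi-likelihood test, on the 6 libraries compared and on all genes. Adjusted p-values follow Benjamini and Hochberg over all genes tested, and the threshold is 0.05. The SE is the log2 fold change divided by the square root of the F statistic, and 95% intervals use the total degrees of freedom of the fit. CPM were computed from the deposited counts with TMM factors of all 12 libraries. Log2 CPM in the correlations carry a pseudocount of 0.5 CPM. Total counts ran from 28616877 to 47067903.

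The 10 members and the gene lists were chosen with earlier results of these data known. The named genes are the members, the genes of the assembly, lysyl oxidase, receptor and elastin-degrading lists past the threshold in AkCk against Wt, the most abundant gene of each list, and the 5 genes most like the members. Loxl1, Loxl2, Ltbp1, Emilin3, Ctss, Ctsk, Itga8, Itgb8, Malat1 and the marker genes named were added after their values were seen. Alternatives were RLE size factors, library size only, DESeq2 1.42.0, no filter, the paper's filter (above 10 RPKM in 3 libraries) recomputed with merged exon lengths, all 12 libraries, the 9 libraries of run1008, Xist as a covariate, limma 3.58.1 on the deposited log2 values, per-library offsets for GC content and exon length (20 bins), and leaving out each library. Calls of single genes in the nephron and collecting duct list in AkCk against Wt are not reported here. The fitting steps were tested on simulated data. Positions and promoters come from RefSeq of GRCm38.p6. Figures were made in Python 3.11.15 by matplotlib 3.10.9.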

Additional observations from a re-analysis of the deposited data

How the results depend on the processing

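The members past the threshold in AkCk against Wt numbered 8, and 5 with Xist as a covariate, 5 by limma on the deposited log2 values, and 4 to 7 when each library was left out in turn. In the other processing alternatives the count was 6 to 8. Fbln2 and Fbln5 passed in each of 16 alternatives and Mfap5 in each of the 15 that tested it. In AhCk against Wt the count of 0 became 4 in DESeq2 and 0 to 2 with libraries left out. In AkCk against AkCh the count of 0 became 4 in DESeq2, 4 with all 12 libraries in the fit, 3 with the 9 libraries of run1008, 5 with Xist as a covariate, and 0 to 7 with libraries left out. In AkCh against Wt it was 0 in each alternative run. The causes were not tested.

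Some log2 fold changes that were not past the threshold changed sign. In AkCk against Wt, Fbn2 (0.04) had -0.02 with library size only, and -0.10 to 0.20 with libraries left out, of which -0.10 without Wt_30 and -0.06 without AkCk_24. In AkCh against Wt, the values without AkCh_20 were 0.07 for Fbn1, -0.25 for Mfap2 and -0.23 for Mfap4, and Fbn2 had 0.01 without AkCh_33. With each library left out, values ran from -0.36 to 0.07 for Fbn1, -0.41 to 0.01 for Fbn2, -0.25 to 0.59 for Mfap2 and -0.23 to 0.40 for Mfap4. In AhCk against Wt, Fbn2 (0.01) had -0.09 by limma and -0.25 with offsets for GC content and exon length, and -0.23 to 0.33 with libraries left out (-0.14, -0.15 and -0.23 without Wt_30, AhCk_110 and AhCk_115), while Mfap4 (-0.06) had 0.05 with Xist as a covariate, 0.01 with the same offsets and 0.01 without Wt_55 or AhCk_38. In AkCk against AkCh, Mfap2 (-0.09) had 0.06 by limma, 0.13 with the offsets and 0.53 without AkCh_20 (-0.33 to 0.53 with libraries left out).

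Over all genes, 2171 were past the threshold in AkCk against Wt, 690 with the 9 libraries of run1008, 1190 with all 12, 3380 in DESeq2, 682 under the paper's filter as recomputed here, 1215 by limma, 1009 with Xist as a covariate, and 535 to 3386 with libraries left out. With library size only, 742 rose and 1649 fell, beside 999 and 1172. In AhCk against Wt the count of 376 became 1318 in DESeq2, 149 with all 12 libraries, 121 with the GC and length offsets, 134 with Xist, 158 by limma, and 60 to 549 with libraries left out. In AkCh against Wt the 0 became 22 in DESeq2, 1 by limma, 2 with all 12 libraries, and 0 to 8 with libraries left out. In AkCk against AkCh the 0 became 554 in DESeq2, 540 with all 12 libraries, 181 with the 9 of run1008, 653 with Xist, 2 with the GC and length offsets, 1 by limma, 1 without a filter, and 0 to 687 with libraries left out. No paired analysis was possible because the sample labels do not give the litter of an embryo. The 9 libraries of run1008 give no value for AhCk, and the paper's filter, as recomputed here, left Mfap5 untested.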
